A study of Mus musculus with 45 samples.

Results

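Genes of the WNT pathway were followed through a 9-day differentiation of mouse embryonic stem cells (mESCs) toward spinal sensory interneurons. The genes were the rows of the deposited table whose symbols begin with Wnt, Fzd, Rspo, Sfrp or Dkk and a digit, together with Axin2, Tnfrsf19 and Frzb. This rule found 42 of the 11220 listed genes: 18 WNT ligands, 4 R-spondin agonists, 10 Frizzled receptors, 8 secreted antagonists and 2 target genes, all annotated as protein-coding in GENCODE M21 on mm10. RNA was sequenced in bulk from 45 adherent cultures that formed 15 groups of 3, and the series' design text states 3 independent differentiations. The M groups received 100 nM retinoic acid (RA) with 10 ng/ml BMP4 for 48 h from day 3, and were sampled as M4, M5, M7 and M9 on days 4, 5, 7 and 9. The B groups received RA alone for 24 h and then RA with BMP4 for 24 h, and were sampled 6 h into the second interval (B6hr) and as B5, B7 and B9. The R groups received RA alone for 48 h and were sampled as R4, R6hr, R5, R7 and R9. The treatment text gives the R interval as 48 h but also as day 3 to day 4; the 48 h reading is used here, and whether RA was present in R cultures after day 4 is not certain. All of these had first passed through D3, the neuromesodermal progenitor stage, which was reached under basic FGF and CHIR, and D3 was set against D0, the undifferentiated mESCs. M and B therefore differed in both the start and the length of BMP4 exposure. The labels name no cell line, and what a replicate number stands for is not stated, so p-values measure the spread between these cultures.

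WNT proteins are secreted, lipid-modified ligands that bind Frizzled receptors. In the canonical branch, binding together with Lrp5 or Lrp6 stabilizes beta-catenin, which acts with TCF and LEF factors on targets such as Axin2, itself a negative feedback component, and CHIR enters this branch by inhibiting GSK3. R-spondins keep Frizzled receptors at the cell surface, whereas Sfrp proteins and Frzb bind WNTs outside the cell and Dkk1 blocks the co-receptors. In the embryo, canonical signalling maintains the caudal progenitors of the trunk, and Wnt1 and Wnt3a from the roof plate act on the dorsal spinal cord.

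Values are the authors' normalized levels, a signal per gene and library with no unit in the header. The levels summed to between 12245725 and 15868724 per library, and the depth of each library is unknown although the labels state 30000000 reads per sample. A value in parentheses after a gene name is its log2 change, computed on log2(level + 1), unless it is given per kb. A gene was called higher or lower where its limma adjusted p, taken over all 11220 genes of a comparison, was under 0.05. The table lists no gene without a false discovery rate under 0.1 in 1 or more of the authors' 12 deposited comparisons, so the shares of all genes given beside the members' counts are shares of a preselected table. The adjusted p are taken over the same preselected genes and may be too small. Adjusting over 16014 genes, the estimated number the authors tested, ended 18 of the calls reported below. Several libraries stood apart from the others of their group. D0 replicate 3 had a summed level of 7 pluripotency markers of 90725, against 17635 and 16245 in replicates 1 and 2. D3 replicate 1 had a summed level of 7 caudal progenitor markers of 54203, against 2911 and 2838 in the other D3 libraries and 24.8 to 391 in D0. The summed level of 7 neuronal markers was 3897 in R7 replicate 3, against 14814 and 17771 in the other R7 libraries, although the neuronal sum also reached 10498 to 17838 in D0. Over the 16 comparisons of groups, 273 gene and comparison pairs were called, and 173 of them stayed called whichever library was left out, with other pseudocounts, filters and scaling, and when only the compared libraries were fitted. That count leaves out a replicate block with only the compared libraries fitted, which ended 68 of the 273 calls. The spread between libraries of a group was larger for the members than for most genes, with a median SD of 0.57 on the log2 scale against 0.27 over all genes. Wnt1 had the largest spread of the 42, at 1.66 on the log2 scale.

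One promoter each is shown for 4 genes on which the first comparisons turn: Axin2 and Wnt5b rose in D3 and fell in R4, Tnfrsf19 rose in D3, and Fzd7 rose in R4. Each run holds the 250 bases before an annotated start in RefSeq on GRCm38.p6, read 5′ to 3′ on the gene's strand; of the 2 Tnfrsf19 and 3 Wnt5b starts, the one with a match is shown. The TCF/LEF letters CTTTGAT or CTTTGTT, searched on both strands, are in capitals. The Axin2 window is chr11:108920099-108920348 on the plus strand, and the Tnfrsf19 window is chr14:61037988-61038237 on the minus strand. The Wnt5b window is chr6:119449387-119449636 on the minus strand, and the Fzd7 window is chr1:59481897-59482146 on the plus strand.

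Axin2: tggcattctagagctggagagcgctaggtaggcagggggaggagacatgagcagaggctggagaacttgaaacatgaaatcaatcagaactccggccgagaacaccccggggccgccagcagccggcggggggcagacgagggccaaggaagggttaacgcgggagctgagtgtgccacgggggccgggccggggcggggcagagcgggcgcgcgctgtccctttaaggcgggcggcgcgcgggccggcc

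Tnfrsf19: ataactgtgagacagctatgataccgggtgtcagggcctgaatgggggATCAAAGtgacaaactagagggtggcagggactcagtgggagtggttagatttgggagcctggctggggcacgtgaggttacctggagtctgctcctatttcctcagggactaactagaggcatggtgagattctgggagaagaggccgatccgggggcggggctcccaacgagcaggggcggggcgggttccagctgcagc

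Wnt5b: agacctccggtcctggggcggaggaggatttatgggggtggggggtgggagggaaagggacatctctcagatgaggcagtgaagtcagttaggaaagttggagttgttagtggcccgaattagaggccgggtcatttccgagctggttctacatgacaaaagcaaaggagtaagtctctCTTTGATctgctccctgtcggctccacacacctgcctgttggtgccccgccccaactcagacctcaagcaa

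Fzd7: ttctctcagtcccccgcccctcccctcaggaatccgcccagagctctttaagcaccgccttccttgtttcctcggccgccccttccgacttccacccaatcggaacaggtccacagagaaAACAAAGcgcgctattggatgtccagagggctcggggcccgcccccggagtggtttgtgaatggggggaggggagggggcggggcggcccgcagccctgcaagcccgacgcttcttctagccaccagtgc

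The Tnfrsf19 letters (ATCAAAG, the CTTTGAT of the other strand) lay 202 bases before that start, the Wnt5b letters (CTTTGAT) 71 bases before theirs, and the Fzd7 letters (AACAAAG, the CTTTGTT of the other strand) 130 bases before theirs. The Axin2 window held none, and neither did the windows before the other annotated starts of these genes, 1 for Tnfrsf19 and 2 for Wnt5b. The promoter table had 29 of the 42 genes, and 5 of them (17.2%) held at least 1 match, namely these 3, Dkk1 and Wnt11. A match was held by 9.2% of all 27025 genes with a promoter. A match is a description of these letters in this window only.

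**Figure D1:**
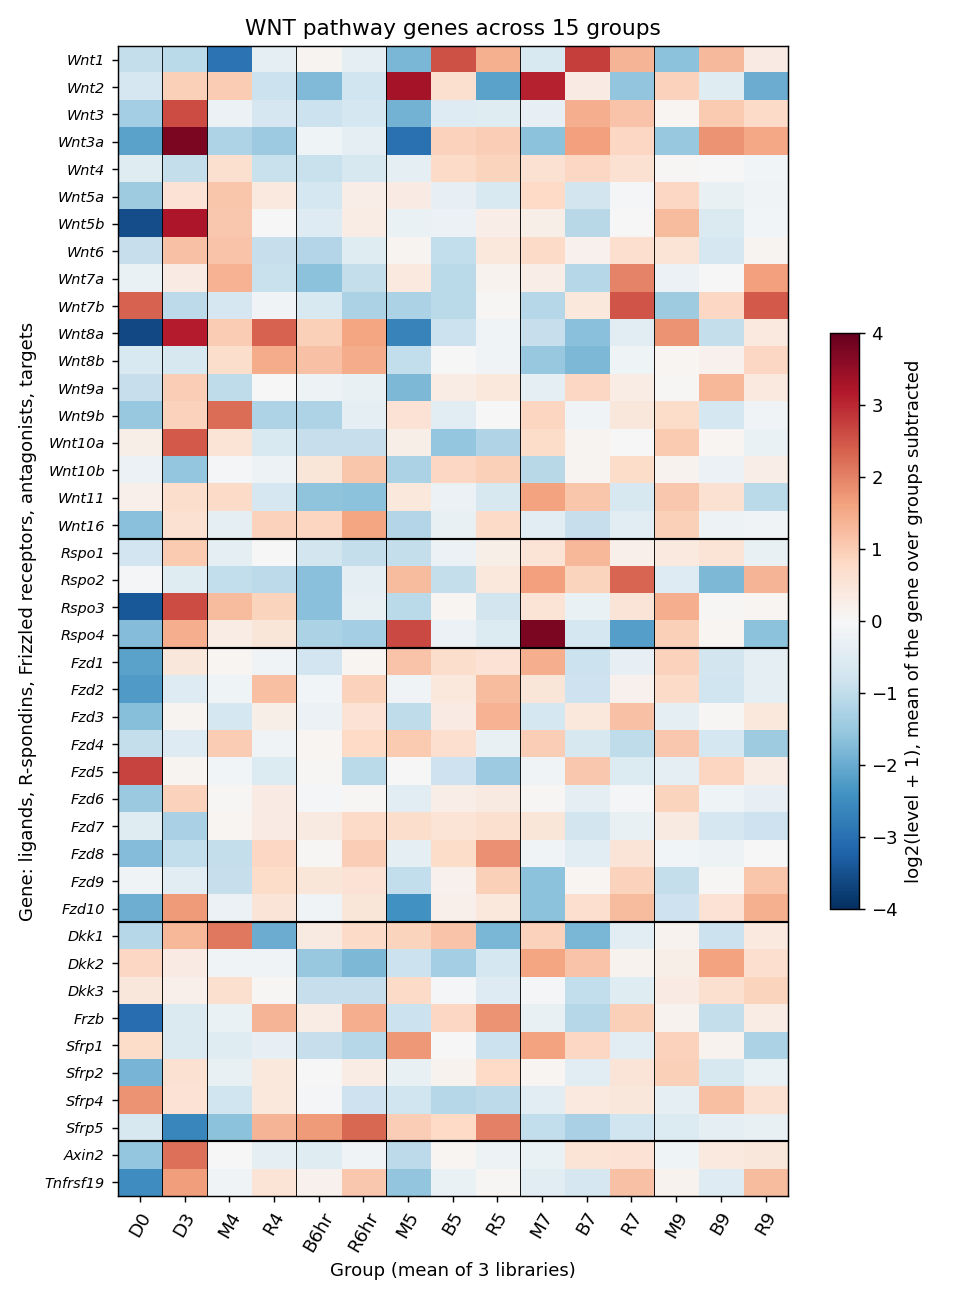
Mean log2(level + 1) of each gene in the 15 groups, with the gene's own mean over groups subtracted. Rows are the 42 genes by role, separated by lines, columns are the groups in order of day, red is above and blue below the gene's mean, and 11 of the 42 genes had their highest mean in D3.

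Group means ranged more widely for these genes than for most. The median range of a member's 15 group means was 3.57 on the log2 scale, against 1.51 over all genes, and 11 members were highest in D3 while 15 were lowest in D0. Compared per kilobase of exon, the leading ligand changed along the course. It was Wnt7b in D0 (182 per kb), Wnt3a in D3 (2019 per kb, 32% of the summed ligand level) and Wnt8a in R4 (354 per kb). Without D0 replicate 3 Wnt1 led in D0 (171 per kb), and without D3 replicate 2 or 3 Wnt5b led in D3 (1891 and 1869 per kb), while Wnt8a in R4 was at 191 per kb without replicate 2 and still led. On days 5 and 7, the leading ligand was Wnt6 in M5 (202) and M7 (318), whereas Wnt1 led in B5 (804), R5 (375), B7 (871) and R7 (444 per kb). These Wnt1 means rest in part on single libraries: without R7 replicate 2 Wnt1 was at 285 per kb in R7 and Wnt6 led (300.5), without B7 replicate 3 it was at 517 per kb in B7, and without B5 replicate 1 at 510 per kb in B5, where it still led. Without M5 replicate 1 Wnt2 led in M5 (206 per kb). On day 9 Wnt5b led in M9 (337) and Wnt3a in B9 (493) and R9 (407 per kb). Among receptors, Fzd10 led in D3 (3248), B7 (1579), R7 (2283), B9 (1411) and R9 (2546 per kb). Fzd7 led in D0 (609) and M5 (1312), and Fzd2 led in the other 8 groups, from 1274 per kb in B6hr to 3287 per kb in R5. Without M5 replicate 1 Fzd2 led there too (1447 per kb). The antagonist Sfrp1 held 75.2% of the summed antagonist level per kb in M5 and 43.7% in B5, against 21.7% in R5. It held 81.5% in D0, and on day 7 73.5% in M7, 72.1% in B7 and 40.0% in R7. In D0 Sfrp1 was at 2188 per kb, but at 1606.5 without replicate 2 and at 2906 without replicate 3, and it still led. D0 replicate 3, the library with the highest pluripotency sum, thus lowered the D0 mean of Sfrp1. Without B5 replicate 1 Sfrp2 led in B5 (866 per kb, against 858 for Sfrp1). These orders are of group means and were not tested between genes, and the values without single libraries were added after seeing the data.

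In D3 over D0, 11 of the 18 ligands, 3 of the 4 R-spondins and both targets rose, and 2 ligands fell. 24 members were called higher and 6 lower, where 30.9% and 24% of all genes were. The median log2 change of the 42 was 1.80, against 0.07 over all genes. Axin2 was at 17254, 15189.5 and 16842 in D3 and at 1109, 1174 and 1376 in D0 (log2 change 3.75, SE 0.24, limma adjusted p = 2.36e-14). Tnfrsf19, a receptor of the TNF family, was at 9901, 4209 and 4586 in D3 and 338, 281 and 346 in D0 (log2 change 4.16, SE 0.34, limma adjusted p = 6.62e-12). For both targets every D3 library lay above every D0 library, and the D3 libraries of Axin2 were close together whereas Tnfrsf19 was highest in D3 replicate 1.

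Wnt5b, Wnt8a and Wnt3a, which the caudal embryo expresses, had the largest changes of the ligands. Wnt5b was at 7600.2, 2318 and 2439 in D3 and 36.6, 17.3 and 46.6 in D0 (log2 change 6.77, SE 0.37, limma adjusted p = 3.47e-16). Wnt8a was at 3765, 389 and 402 in D3 and 3.16, 2.38 and 31.7 in D0, a log2 change of 6.76 that was 5.68 without D3 replicate 1 and 7.81 without D0 replicate 3. Wnt3a was at 3270.4, 6751 and 6706 in D3 and 104, 86.7 and 73.1 in D0 (log2 change 5.91), and it was lowest in D3 replicate 1, the library in which Wnt5b and Wnt8a were highest. Wnt3 (3.97), Wnt16 (2.29), Wnt6 (2.08), Wnt5a (2.03) and Wnt9a (1.93) rose too, as did Wnt9b (2.42) and Wnt10a (2.24), whose changes were 1.70 and 3.02 without D0 replicate 3 and D3 replicate 1. The change of Wnt16 was 1.64 with a pseudocount of 5. Wnt7b, a ligand of the canonical branch in several tissues, was the ligand that fell most, to 27.9, 114 and 138 in D3 against 608, 571 and 1493 in D0 (log2 change -3.38, SE 0.51, limma adjusted p = 1.17e-06). Its log2 change was -2.22 without D0 replicate 3 and D3 replicate 1.

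Of the agonists, Rspo3 was at 3148, 3046 and 3089 in D3 and 30.8, 42.2 and 79.2 in D0 (log2 change 6.01), and Rspo4 (3.16) and Rspo1 (1.80) rose as well. Rspo2 was at 20.4, 46 and 42.4 in D3 and 63.9, 87.4 and 16.5 in D0 and was not called. Among receptors, Fzd6 was at 1096, 1193 and 1082 in D3 and 210.2, 202 and 223 in D0 (log2 change 2.40, SE 0.13, limma adjusted p = 4.47e-16). The 3 libraries of each group were close together in Fzd6, and the D3 libraries stood apart from those of D0. Fzd10, Fzd1, Fzd3 and Fzd2 rose by 3.67, 2.58, 1.80 and 1.75 on the log2 scale, the last by 1.17 without D0 replicate 3 and D3 replicate 1. Fzd5 fell to 164, 519.6 and 553 in D3, against 1683, 1728 and 3627 in D0 (log2 change -2.60, SE 0.41, limma adjusted p = 2.69e-06), or by 1.67 without the same 2 libraries. Of the antagonists, Sfrp2 (log2 change 2.47, SE 0.20, limma adjusted p = 5.49e-12) and Frzb (log2 change 2.48, or 1.71 without the 2 libraries) rose. The remaining 6 calls were less stable: those of Fzd7 (-0.80), Sfrp5 (-1.96), Wnt10b (-1.30), Sfrp1 (-1.30) and Wnt2 (1.61) were lost when D3 and D0 were fitted alone (adjusted p with 1 library left out up to 0.329), and that of Dkk1 (2.46) without any of D0 replicate 2, D0 replicate 3, D3 replicate 1 or D3 replicate 2 (adjusted p up to 0.115). Without both libraries that stood apart, 23 members were called higher and 6 lower.

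Other pathway genes moved in the same comparison, where 30.9% of all genes were called higher and 24% lower. The lists overlap: Lgr5, Rnf43, Notum, Apcdd1 and Lef1 are shared between lists. T, Cdx1, Cdx2, Cdx4 and Tbx6, counted as targets, are also among the caudal progenitor markers. Of 19 further reported WNT targets, 16 were listed, 14 rose and 1 fell, led by the transcription factor Sp5 (log2 change 7.01, SE 0.46, limma adjusted p = 4.49e-14) and the inhibitor Nkd2 (log2 change 1.90). Of 18 genes for WNT secretion and co-receptors, 15 were listed, 11 rose and 2 fell, with the planar polarity co-receptor Ptk7 (2.39) and the co-receptor Lrp5 (0.91) leading. Of 25 intracellular components, 16 were listed, 8 rose and 3 fell, among them the repressive TCF factor Tcf7l1 (-2.35). Of 11 other secreted inhibitors 3 rose and 0 fell, and of 12 planar polarity genes 6 rose and 4 fell. Beta-catenin itself was not among the listed genes and was not analysed here.

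**Figure D2:**
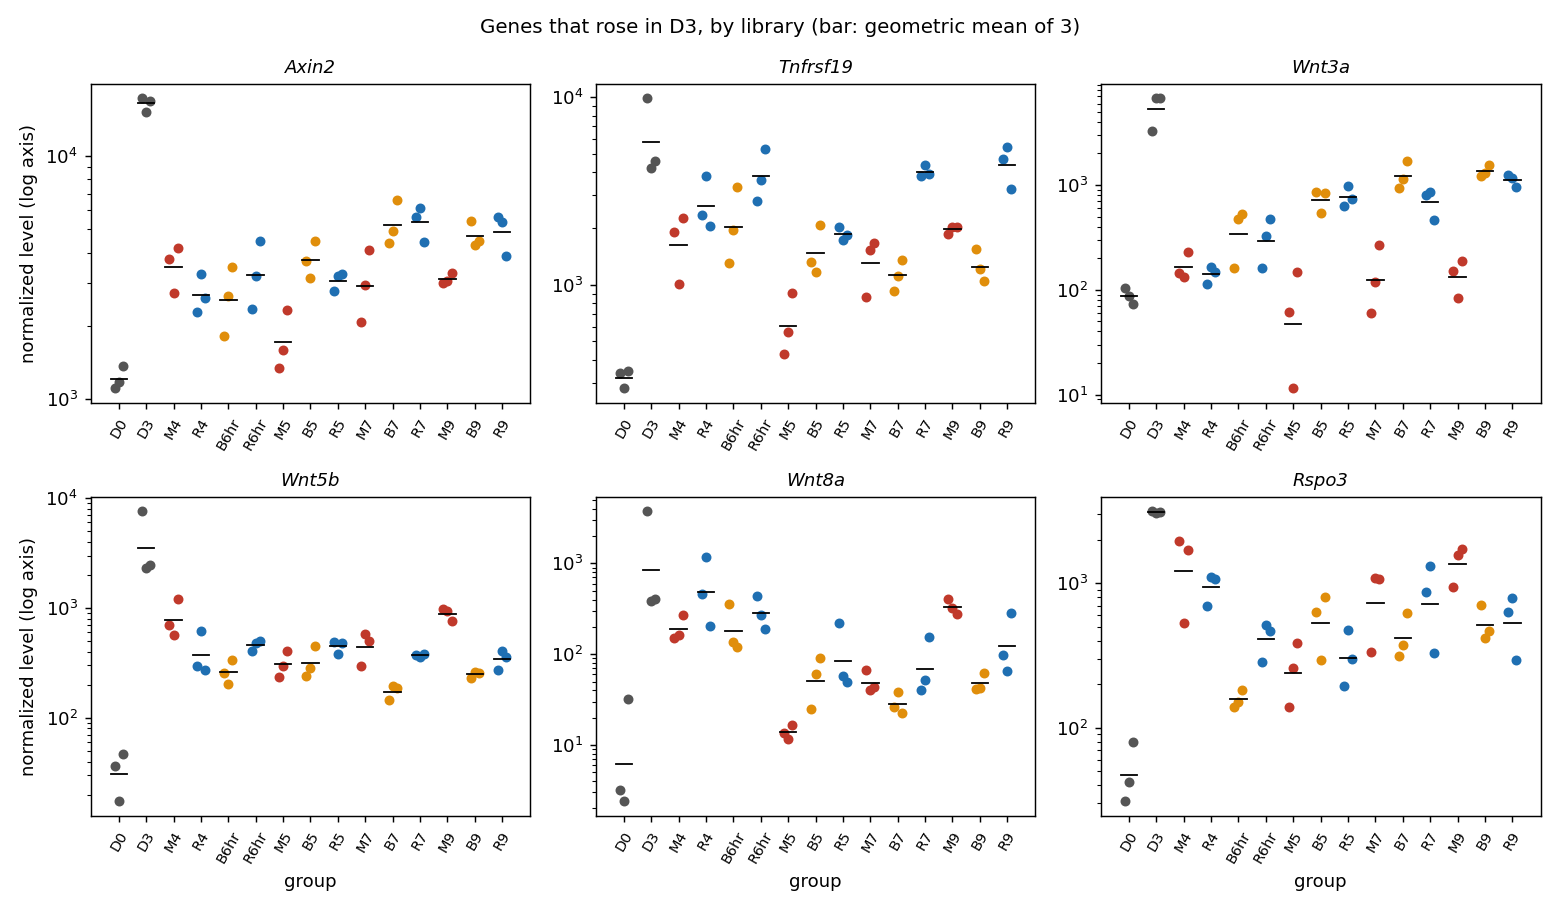
Normalized level (log axis) of 6 genes that rose in D3, in every library of the 15 groups. Points are libraries, coloured by D (grey), M (red), B (orange) and R (blue) groups, and bars are geometric means of 3; the 3 D3 libraries lie above all other libraries for Axin2, Wnt3a and Wnt5b.

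In R4, after the first 24 h of RA, 8 of the 18 ligands and both targets were called lower than in D3, and 4 of the 10 receptors higher. D3 is shared with the comparison above and was reached under basic FGF and CHIR. Every group after D3 received RA. The effects of RA, of any change in basic FGF or CHIR, and of time in culture therefore cannot be told apart here. 7 members were called higher and 15 lower, where 11.7% and 12.6% of all genes were. Wnt3a fell to 114, 166 and 146 in R4, against 3270.4, 6751 and 6706 in D3 (log2 change -5.22, SE 0.56, limma adjusted p = 1.97e-08). Axin2 fell to 2279, 3283 and 2609 in R4, against 17254, 15189.5 and 16842 in D3 (log2 change -2.61, SE 0.24, limma adjusted p = 8.10e-10), and its lowest D3 library was more than 4-fold above its highest R4 library. Wnt5b (log2 change -3.24, SE 0.37, limma adjusted p = 4.63e-08), Wnt3 (log2 change -3.29), Wnt10a (-3.07) and Wnt6 (-2.08) fell with them. Wnt8a did not pass the test, at 464, 1188 and 202 in R4 and 3765, 389 and 402 in D3, and R4 replicate 2, the highest in Wnt8a, was also the R4 library with the highest caudal marker sum (10081, against 1926 and 1076 in replicates 1 and 3).

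Sfrp5, a secreted WNT-binding antagonist, was at 1017, 1065 and 334 in R4 and 138, 25.8 and 24.7 in D3 (log2 change 3.96, SE 0.56, limma adjusted p = 2.04e-06), and the change was 4.77 without D3 replicate 1. Fzd7 was at 4157, 5781 and 4180.5 in R4 and 1896, 1448 and 1229 in D3 (log2 change 1.63, SE 0.19, limma adjusted p = 8.60e-08). Fzd2 was at 9829, 12745 and 12326 in R4 and 5235, 2823 and 2791 in D3 (log2 change 1.74, SE 0.34, limma adjusted p = 2.03e-04). With a replicate block and only R4 and D3 fitted, the limma adjusted p of Fzd2 was 0.0692. For these 3 genes the R4 libraries lay above the D3 libraries without overlap. Fzd8 (log2 change 1.82) rose too, and Fzd6 (-0.59) and Dkk1 (-3.32) fell. Another 10 calls ended when 1 library was left out or when R4 and D3 were fitted alone, with adjusted p up to 0.211 over the libraries left out: Fzd9 (1.16), Frzb (1.96) and Wnt8b (2.13) on the higher side, and Fzd10 (-1.20), Tnfrsf19 (-1.13), Rspo3 (-1.72), Rspo1 (-1.06), Wnt7a (-1.23), Wnt2 (-1.80) and Wnt9b (-2.15) on the lower. R4 replicate 1 and D3 replicate 3 ended 5 of these calls each, and each of the other 4 libraries at least 2. Of the 16 further WNT targets 2 rose and 6 fell, with Sp5 at a log2 change of -3.30 and Myc at 2.30. The summed neural progenitor markers were 17629.7 to 23551 in R4, against 8401 to 9063 in D3, and the part of cell composition in these changes was not tested. In bulk RNA, fewer cells of a type and less RNA per cell cannot be told apart, here and in the comparisons that follow.

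Several ligands and the antagonist Dkk1 were higher after 24 h of BMP4 with RA from day 3 than after RA alone. In M4 over R4, 7 members were called higher and 6 lower, where 6.76% and 7.37% of all genes were, and 5 of the 7 were ligands. Wnt6, a ligand of surface ectoderm and other epithelia, was at 1206, 714 and 883 in M4 and 211, 268 and 184 in R4 (log2 change 2.06, SE 0.21, limma adjusted p = 3.06e-08). Wnt9b was at 325, 94 and 114 in M4 and 16, 11.9 and 11.1 in R4 (log2 change 3.46, SE 0.54, limma adjusted p = 3.34e-05). The antagonist Dkk1 was at 839, 652 and 844 in M4 and 42.6, 57.5 and 34.6 in R4 (log2 change 4.11, SE 0.95, limma adjusted p = 0.00282). Wnt7a (log2 change 2.31, SE 0.41, limma adjusted p = 1.87e-04) rose as well, and all 4 genes were higher in every M4 library than in any R4 library. R4 was the group with the lowest mean of Dkk1. With RA alone 6 h later, Dkk1 was at 289 per kb in R6hr, against 321 per kb in M4, although R6hr replicate 1 was far lower. Wnt6 had itself fallen from D3 to R4 (log2 change -2.08). On the lower side, Sfrp5 was at 93, 48.7 and 148 in M4 and 1017, 1065 and 334 in R4 (log2 change -3.01, SE 0.56, limma adjusted p = 2.89e-04), and Fzd9 at 39.8, 53.5 and 83.5 in M4 and 162, 202 and 179 in R4 (log2 change -1.66, SE 0.30, limma adjusted p = 2.50e-04). The other 7 calls were lost in part of the alternatives, with adjusted p up to 0.35 with 1 library left out: Fzd4 (1.14), Wnt5b (1.08) and Wnt2 (1.88) were higher, and Fzd8 (-1.80), Fzd2 (-1.39), Sfrp2 (-0.71) and Frzb (-1.65) lower. Leaving out R4 replicate 3 ended 5 of them and each other library at least 1. Fitting M4 and R4 alone called 7 members and 364 of all genes.

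Of the 11 other secreted inhibitors 2 rose and 2 fell in M4 over R4, with Cer1, which binds BMP and Nodal as well as WNT in Xenopus, lower (-5.73) and Bambi, a pseudoreceptor induced by BMP, higher (2.55). Of the 12 planar polarity genes 0 rose and 3 fell, led by the cadherin Celsr1 (-1.40). In this comparison 6.76% of all genes were called higher and 7.37% lower. Markers of other cells moved with the comparison. The summed level of 10 of 10 listed lateral mesoderm and mesenchyme markers was 15473 to 28730.1 in M4 and 2612 to 7668 in R4, that of 6 of 6 surface epithelium markers 10456 to 15485 in M4 and 3231 to 5104 in R4, and that of 6 of 6 neural progenitor markers 3916 to 8520.4 in M4 and 17629.7 to 23551 in R4, with no marker at 0. The mesenchyme sum was also 17111, 18689.5 and 4850 in the D0 libraries and 1847, 10084 and 13232.5 in those of D3. A high value of this sum, here or on later days, is therefore not particular to mesoderm formed in culture. The part of these markers in the result was not tested.

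The first 6 h of BMP4 after a day of RA, B6hr against R6hr, called 0 members higher and 0 lower in the fit of all libraries, where 0% and 0.0178% of all genes were called. With limma, 13 of the 42 members and 2161 of the 11220 genes had an unadjusted p under 0.05. The authors' deposited test called 0 members. In these 2 groups all 3 same-numbered pairs of libraries deviated together, with correlations over 0.1, as in no other compared pair. Replicate 1 of both stood apart in Dkk1, which was at 19, 551 and 1105 in B6hr and 27.1, 725 and 1352 in R6hr. With the replicate number as a block and these libraries alone, 1 member was higher and 18 were lower, where 10.6% and 15.3% of all genes were. Without the block the same libraries fitted alone gave 8 calls, and 847 over all genes. In the blocked fit 7 of 10 receptors were lower, among them Fzd2, at 5950.5, 4245 and 3807 in B6hr and 11469.8, 10702 and 6879 in R6hr (log2 change -1.04, SE 0.09, limma adjusted p = 0.000531). Rspo3 was at 139.6, 151 and 184 in B6hr and 283, 509.9 and 469 in R6hr (blocked log2 change -1.37, limma adjusted p = 0.000643, against 0.176 in the fit of all libraries). Every B6hr library was below its same-numbered R6hr library in both genes. Wnt5a (-0.96), Tnfrsf19 (-0.89), Fzd1 (-0.85) and Axin2 (-0.34) were also lower in the blocked fit, and Fzd5 was higher, at 326, 399 and 322 in B6hr and 161, 154 and 159.7 in R6hr (1.13).

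By day 5, when the treatments ended, M5 differed from R5 across all 5 roles whereas the same fit called 2 members in B5 over R5. In M5 over R5, 9 members were higher and 19 lower, where 21% and 23.3% of all genes were, and the median log2 change was -0.82, against -0.02 over all genes. Wnt2, a ligand of mesodermal and mesenchymal tissues, was at 295, 479 and 449 in M5 and 6.91, 14.1 and 5.09 in R5 (log2 change 5.48, SE 0.56, limma adjusted p = 3.23e-09). Rspo4 was at 286, 468 and 658 in M5 and 43.3, 62.8 and 41.5 in R5 (log2 change 3.17, SE 0.40, limma adjusted p = 1.77e-07), and the antagonist Sfrp1 at 15186, 17981 and 15301 in M5 and 1478, 4059 and 3129 in R5 (log2 change 2.60, SE 0.53, limma adjusted p = 1.93e-04). All M5 libraries exceeded all R5 libraries in these 3 genes. Fzd4 (1.35), Fzd5 (1.44) and Dkk3 (1.28) rose with them.

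Wnt3a, a roof plate ligand, and the receptors Fzd10 and Fzd3 were among the genes lower in M5. Wnt3a fell to 61.1, 11.4 and 148 in M5, against 624, 980.1 and 741 in R5 (log2 change -3.98, SE 0.56, limma adjusted p = 1.08e-06), and the log2 change was -3.00 without M5 replicate 2 and -4.79 without M5 replicate 3. Fzd10, a receptor of the dorsal spinal cord, fell to 363, 394 and 1374 in M5, against 3594, 4072 and 4755 in R5 (log2 change -2.82, SE 0.42, limma adjusted p = 2.25e-06), or by 3.44 without M5 replicate 3. Fzd3, which acts in planar polarity and axon growth, fell to 1143, 1628 and 2594 in M5, against 6199, 9338 and 12350.1 in R5 (log2 change -2.40, SE 0.37, limma adjusted p = 4.66e-06). Each of the 3 was lower in every M5 library than in any R5 library. Wnt9a (-2.21), Wnt10b (-2.22) and Wnt16 (-1.96) fell among the ligands, Fzd8 (-2.20), Fzd9 (-1.92), Fzd2 (-1.42) and Fzd6 (-0.79) among the receptors, Frzb (-2.66) and Sfrp2 (-1.10) among the antagonists, and both targets, Tnfrsf19 (log2 change -1.63, SE 0.34, limma adjusted p = 2.59e-04) and Axin2 (log2 change -0.84, SE 0.24, limma adjusted p = 0.00502). Wnt1 was at 63.6, 19.7 and 307 in M5 and 244, 1476 and 956 in R5 (log2 change -3.24, SE 1.30, limma adjusted p = 0.0418), and the call was lost without any of R5 replicates 2 or 3 or M5 replicates 1 or 2 (adjusted p up to 0.211). Leaving out 1 library also ended the calls of Wnt3 (-1.41), Rspo1 (-1.16), Wnt7b (-1.34), Wnt8a (-2.54), Wnt5a (0.93), Dkk1 (2.74) and Wnt10a (1.44), with adjusted p of at most 0.126, and R5 replicate 3 ended the most, 5 with Wnt1 counted.

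B5 over R5 gave 1 member higher and 1 lower, where 2.76% and 3.23% of all genes were. Wnt2 was at 93.5, 41.8 and 57.4 in B5 and 6.91, 14.1 and 5.09 in R5 (log2 change 2.78, SE 0.56, limma adjusted p = 0.00233), but with these libraries fitted alone its adjusted p was 0.0596. Wnt6 was at 228, 194 and 206 in B5 and 649, 620.3 and 411 in R5 (log2 change -1.39, SE 0.21, limma adjusted p = 1.04e-04). Neither gene's groups overlapped. The authors' deposited test called 5 members between R5 and B5, with Dkk1, Fzd3 and Sfrp2 beside Wnt2 and Wnt6. Its log2 fold changes of R5 over B5 were -2.98 for Dkk1, 1.09 for Fzd3 and 0.67 for Sfrp2. Their false discovery rates in that test were 0.0044, 0.0445 and 0.0334. Wnt3a was at 849, 537 and 835 in B5 and 624, 980.1 and 741 in R5, which overlap, and the 95% interval of its log2 change ran from -1.23 to 1.06. The change of Wnt1 was 1.12 with an interval from -1.52 to 3.77. M5 was also set against B5, where 7 members were higher and 12 lower, with 8.57% and 9.23% of all genes. Rspo4 (log2 change 2.87, SE 0.40, limma adjusted p = 5.57e-06), Wnt2 (2.69), Rspo2 (2.23), Wnt6 (1.08) and Wnt10a (1.78, or 1.15 with a pseudocount of 5) rose, and Wnt3a (log2 change -3.90, SE 0.56, limma adjusted p = 8.22e-06), Fzd10 (-2.60), Wnt9a (-2.08), Wnt10b (-2.07), Axin2 (-1.12) and Fzd6 (-0.70) fell. The Wnt3a change was -2.91 without M5 replicate 2 and -4.71 without M5 replicate 3, and the Fzd10 change -3.22 without M5 replicate 3. Calls of Sfrp1 (1.73) and Wnt7a (1.47) on the higher side and of Fzd8 (-1.11), Fzd9 (-1.15), Tnfrsf19 (-1.30), Fzd3 (-1.33), Frzb (-1.69) and Wnt1 (-4.36) on the lower were all 8 lost without B5 replicate 3, and M5 replicate 1 ended 6 (adjusted p up to 0.224).

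The summed mesenchyme markers were 22936 to 29733 in M5, 8114 to 22879.7 in B5 and 3369 to 12549 in R5. The summed neural progenitor markers were 3683 to 7175 in M5, 11618 to 22811 in B5 and 29263 to 47910.2 in R5. Roof plate markers summed to 2097 to 6928 in M5, 7117 to 25584 in B5 and 7456 to 12396 in R5, neural crest markers to 3081 to 3450.1 in M5, 2949 to 4818 in B5 and 2027 to 2903 in R5, and endothelial and blood markers to 2681 to 3346 in M5, 1363 to 1922 in B5 and 577 to 1065 in R5. Their part in the day 5 differences was not tested. B5 replicate 1 held the highest B5 values of both the mesenchyme sum and Wnt1. Of the 11 other secreted inhibitors, 4 rose and 3 fell in M5 over R5, with Bambi (3.61) and Shisa2 (1.42), which retains Frizzled receptors inside the cell, leading. Of the 15 secretion and co-receptor genes, 3 rose and 7 fell, led by the R-spondin receptors Lgr5 (-3.10) and Lgr4 (-0.77). Of the 12 planar polarity genes, 4 rose and 6 fell, led by Prickle3 (2.74) and Celsr1 (-1.91). In M5 over R5, 21% of all genes were called higher and 23.3% lower.

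**Figure D3:**
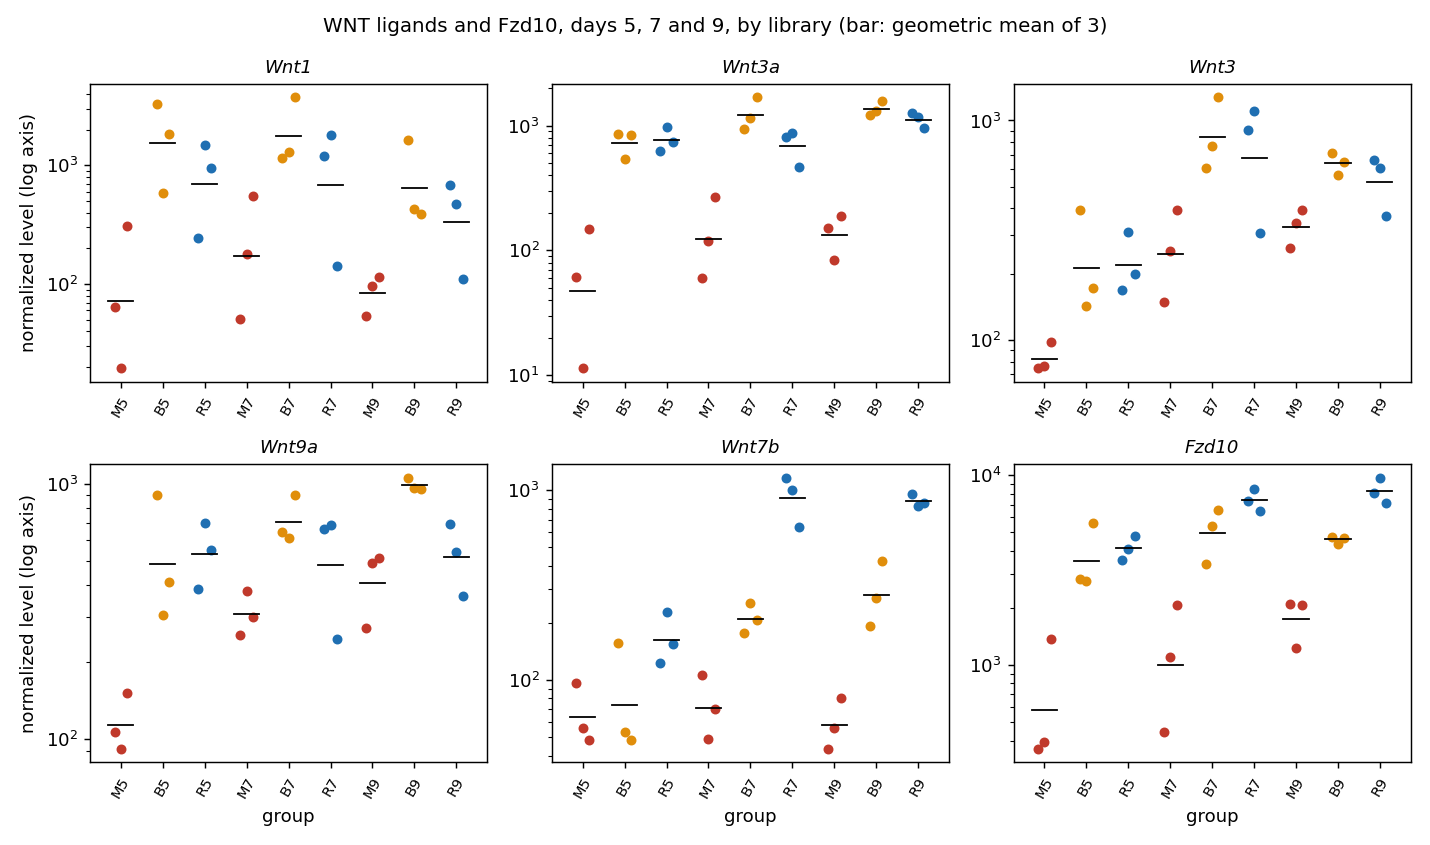
Normalized level (log axis) of 5 WNT ligands and the receptor Fzd10 in M, B and R groups on days 5, 7 and 9. Points are libraries and bars geometric means of 3; Wnt3a lies lower in every M library than in any B or R library of the same day, and Wnt1 is spread widely within groups.

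On day 7, Rspo4 and Wnt2 were again higher in M7 than in R7, and Wnt7b, Fzd10 and Wnt3a lower, while the share of members called stayed near that of all genes. 8 members were higher and 10 lower, where 22.9% and 20.6% of all genes were. Rspo4 was at 434, 1384 and 1529 in M7 and 19.8, 18.1 and 8.93 in R7 (log2 change 5.95, SE 0.40, limma adjusted p = 4.90e-13). Wnt2 was at 198, 331 and 574 in M7 and 15, 21.8 and 5.55 in R7 (log2 change 4.65, SE 0.56, limma adjusted p = 5.58e-08). Both genes were at least 9 times as high in the lowest M7 library as in the highest R7 library. Fzd4 (log2 change 2.01, SE 0.34, limma adjusted p = 1.22e-05), Fzd1 (log2 change 1.79), Fzd7 (0.81) and the non-canonical ligand Wnt11 (2.25) rose, and Sfrp1 rose by 2.03, or by 1.34 without R7 replicate 3. Wnt7b fell to 107, 48.8 and 70.0 in M7, against 1162, 999.6 and 638 in R7 (log2 change -3.64, SE 0.51, limma adjusted p = 7.45e-07). Fzd10 fell to 442, 1104 and 2062 in M7, against 7323, 8456 and 6484 in R7 (log2 change -2.88, SE 0.42, limma adjusted p = 1.41e-06), or by 2.29 without M7 replicate 1. In neither gene did the M7 libraries reach the R7 libraries. Wnt3a (-2.46), Fzd9 (-2.54), Fzd3 (-1.89), Wnt10b (-1.84), Wnt7a (-1.72) and Tnfrsf19 (-1.62) fell with them. Calls of Axin2 (-0.87), Wnt3 (-1.45) and Wnt5a (0.84) ended when single libraries were left out, those of Axin2 and Wnt3 without M7 replicate 1 and that of Wnt5a without R7 replicate 3 (adjusted p up to 0.165). Wnt1 was not called, at 51.2, 178 and 549 in M7 and 1212, 1817 and 141 in R7.

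B7 over R7 gave 5 members higher and 9 lower, where 12.1% and 11.6% of all genes were. Wnt7a, a ligand of the ventricular zone and of axon remodelling, fell to 35.1, 29 and 38.8 in B7, against 376, 338 and 230.4 in R7 (log2 change -3.14, SE 0.41, limma adjusted p = 4.08e-06). Wnt7b fell to 178, 254 and 207 in B7, against 1162, 999.6 and 638 in R7 (log2 change -2.10, SE 0.51, limma adjusted p = 0.00423). Tnfrsf19 fell to 929, 1121 and 1361 in B7, against 3789, 4378 and 3915 in R7 (log2 change -1.84, SE 0.34, limma adjusted p = 3.47e-04), while the other target, Axin2, stood at 4399.5, 4898 and 6601 in B7 and 5618, 6126 and 4411 in R7 and was not called. In the first 3 genes the B7 libraries all lay below the R7 libraries. Frzb (-2.09) and Sfrp2 (-0.97) fell too, and Fzd5 rose, at 871, 643 and 621 in B7 and 180.3, 214 and 309 in R7 (log2 change 1.62, SE 0.41, limma adjusted p = 0.0058). The other 8 calls were lost without 1 or more libraries (adjusted p up to 0.197). R7 replicate 3 ended those of Rspo4 (1.47), Wnt11 (1.75), Wnt2 (1.91), Rspo1 (1.13), Wnt5b (-1.09) and Fzd9 (-0.85), and B7 replicate 1 ended those of Fzd2 (-0.98) and Rspo2 (-1.46). With a replicate block and only B7 and R7 fitted, 0 members and 0 of all genes were called. Wnt3a (log2 change 0.83, 95% interval -0.32 to 1.97) and Wnt1 (1.39, -1.25 to 4.04) did not pass. The summed neuronal markers were 36493 to 50708 in B7, 1593 to 5289 in M7 and 3897 to 17771 in R7, and the mesenchyme sum was 23146 to 39069 in M7, 6584 to 13515 in B7 and 1621 to 13219 in R7. The neural progenitor sum was 4789.9 to 9698 in M7, 15424 to 19738 in B7 and 23857 to 28979 in R7, the neural crest sum 3640.1 to 4462 in M7, 4199 to 4504 in B7 and 1236 to 2088 in R7, and the roof plate sum 1160.2 to 4709 in M7, 2525 to 6624 in B7 and 6459.7 to 19594 in R7. Their part in the day 7 results was not tested.

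Between M7 and B7, 14 members were higher and 11 lower, where 21.7% and 19.9% of all genes were. Rspo4 (log2 change 4.47, SE 0.40, limma adjusted p = 4.67e-10) and Wnt2 (2.75) were again higher, and Fzd1 was at 2059, 3651 and 4021 in M7 and 539, 585 and 764 in B7 (log2 change 2.32, SE 0.41, limma adjusted p = 4.47e-05). Wnt5a (1.54) and Wnt5b (1.34), both known for non-canonical signalling, Fzd4 (1.62), Fzd2 (1.30), Fzd7 (1.23) and Wnt7a (1.43) were also higher. Wnt3a fell to 60.1, 118 and 269 in M7, against 932, 1142 and 1686 in B7 (log2 change -3.28, SE 0.56, limma adjusted p = 2.78e-05), and Fzd10 (-2.30, or -1.71 without M7 replicate 1) and Fzd9 (-1.70) fell with it. The remaining 13 calls were lost without 1 or more of these 6 libraries, M7 replicate 2 ending 9 and B7 replicate 2 ending 8 (adjusted p up to 0.217). They were Dkk1 (2.75), Dkk3 (0.93), Wnt6 (0.57), Sfrp2 (0.51) and Fzd6 (0.39) on the higher side and Axin2 (-0.84), Fzd3 (-1.13), Wnt9a (-1.20), Fzd5 (-1.22), Wnt10b (-1.22), Wnt7b (-1.55) and Wnt3 (-1.77) on the lower. The last was Wnt1 (-3.37), which was at 51.2, 178 and 549 in M7 and 1159.8, 1299 and 3758 in B7.

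**Figure D4:**
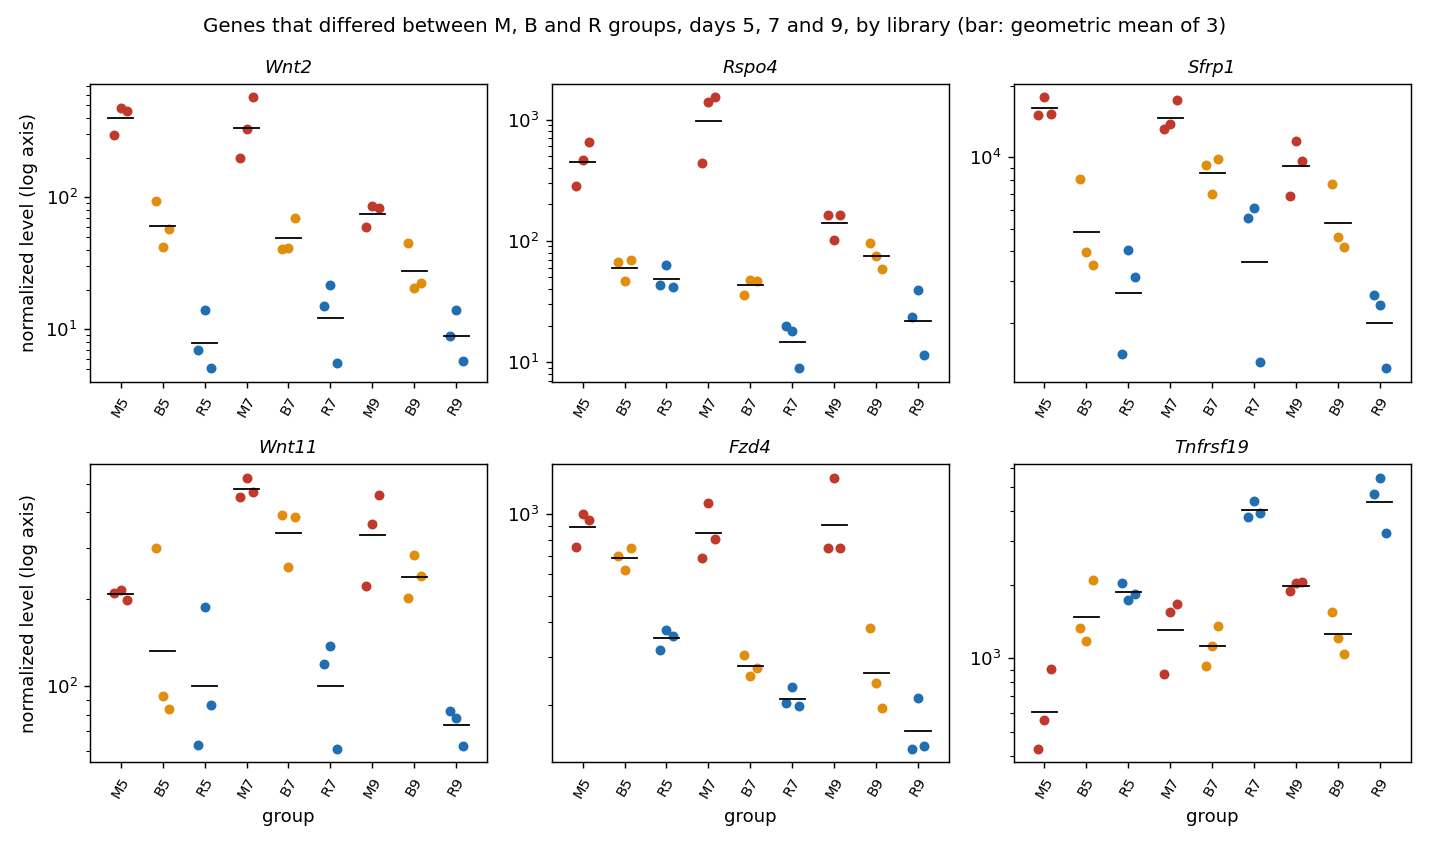
Normalized level (log axis) of 6 members in M, B and R groups on days 5, 7 and 9. Points are libraries and bars geometric means of 3; Wnt2 and Rspo4 lie higher in every M library than in any R library of the same day, and Tnfrsf19 lies lower in every B7 and B9 library than in any R7 or R9 library.

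On day 9, 5 of the 10 receptors were higher and 2 lower in M9 than in R9, and the share of members called was near that of all genes. 14 members were higher and 8 lower, where 27.5% and 23.5% of all genes were. Fzd6 was at 909, 1387 and 1077 in M9 and 484, 533 and 427 in R9 (log2 change 1.21, SE 0.13, limma adjusted p = 9.01e-09). Fzd4, a receptor that also serves Norrin, was at 750.1, 1358 and 749.9 in M9 and 138, 212 and 141 in R9 (log2 change 2.50, SE 0.34, limma adjusted p = 3.67e-07). Sfrp2 was at 3179, 3496 and 2971 in M9 and 1455, 1503 and 1173 in R9 (log2 change 1.23, SE 0.20, limma adjusted p = 8.61e-06). The groups did not overlap in any of the 3. Wnt2 (2.93), Rspo4 (2.61), Sfrp1 (2.20), Wnt11 (2.16), Wnt5b (1.38), Fzd7 (1.18) and Fzd2 (1.16) rose too. On the lower side, Wnt7b was at 43.6, 56.1 and 80.4 in M9 and 950.1, 822 and 857 in R9 (log2 change -3.89, SE 0.51, limma adjusted p = 2.52e-07), and Wnt3a at 152, 83.1 and 189 in M9 and 1253, 1173 and 949 in R9 (log2 change -3.05, SE 0.56, limma adjusted p = 4.57e-05). Every M9 library was below every R9 library in both. Fzd10 (-2.23), Fzd9 (-2.08), Wnt7a (-1.87), Rspo2 (-1.86) and Tnfrsf19 (-1.14) fell. Calls of Axin2 (-0.65), Fzd1 (1.33), Wnt5a (0.96), Rspo3 (1.37) and Wnt10a (1.29) were lost when single libraries were left out, 3 each without M9 replicate 2 or R9 replicate 3 (adjusted p up to 0.174).

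B9 over R9 gave 2 members higher and 6 lower, where 6.12% and 5.71% of all genes were. Rspo2 fell to 20.9, 12.8 and 8.22 in B9, against 213, 140.5 and 62.9 in R9 (log2 change -3.15, SE 0.54, limma adjusted p = 2.62e-04). Tnfrsf19 (log2 change -1.80, SE 0.34, limma adjusted p = 8.57e-04) and Wnt7a (log2 change -1.65, SE 0.41, limma adjusted p = 0.00844) fell on day 9 as on day 7, and Axin2 was again not called. In these 3 genes no B9 library reached an R9 library. The other 5 calls, Rspo4 (1.72), Wnt11 (1.68), Wnt6 (-0.80), Fzd9 (-1.07) and Wnt7b (-1.64), ended when single libraries of B9 or R9 were left out, 4 of them without R9 replicate 3 (adjusted p up to 0.138). In M9 over B9, 15 members were higher and 8 lower, with 27.8% and 23.7% of all genes. Sfrp2 (log2 change 1.59, SE 0.20, limma adjusted p = 2.74e-07), Fzd6 (1.05), Wnt8a (2.75), Wnt5b (1.84), Fzd4 (1.80), Fzd1 (1.68), Fzd2 (1.57), Wnt6 (1.23), Wnt5a (1.11) and Fzd7 (1.03) rose, and Wnt3a (log2 change -3.33, SE 0.56, limma adjusted p = 2.13e-05) and Wnt7b (-2.25) fell. The other 11 calls were lost in at least 1 alternative, 8 of them without B9 replicate 3 (adjusted p up to 0.187). They were Wnt9b (1.44), Wnt2 (1.41), Rspo3 (1.40), Rspo2 (1.29) and Wnt16 (1.16) on the higher side and Axin2 (-0.59), Fzd9, Fzd5 (-1.25), Wnt9a (-1.27), Fzd10 (-1.39) and Sfrp4 (-1.57) on the lower. The mesenchyme sum was 10263 to 22496 in M9, 7506 to 18456 in B9 and 2138 to 6288 in R9, the neuronal sum 2026 to 3403 in M9, 15124 to 18647 in B9 and 5785 to 11925 in R9, and the neural progenitor sum 6479 to 7522 in M9, 11792 to 14663 in B9 and 16648 to 19737 in R9. Their part in the day 9 results was not tested.

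From day 5 to day 9, 6 of the 10 receptors fell and 1 rose in R cultures, 5 fell and 1 rose in B cultures, and 0 fell and 3 rose in M cultures. Of these receptor calls, those of Fzd10 and Fzd2 in M ended without M5 replicate 1, and that of Fzd3 in R without R9 replicate 3. The share of all 42 members called was near that of all genes in R, below it in B and above it in M (42.9% against 25.8%). In R9 over R5, 7 members were higher and 10 lower, where 17.7% and 21.5% of all genes were. Fzd7 fell to 2076, 2317 and 1887 in R9, against 5116, 5529 and 6647 in R5 (log2 change -1.46, SE 0.19, limma adjusted p = 1.17e-06). Fzd2 (-1.65), Fzd8 (-1.80), Fzd4 (-1.12), Fzd6 (-0.68), Sfrp5 (-2.32) and Sfrp2 (-1.06) fell with it, whereas Wnt7b (log2 change 2.41, SE 0.51, limma adjusted p = 4.37e-04), Fzd5 (1.75), Wnt7a (1.52), Dkk3 (1.39) and Tnfrsf19 (1.23) rose. Another 5 calls, Sfrp4 (1.66), Fzd3 (-0.96), Rspo4 (-1.09) and Frzb (-1.49), and Axin2 (0.67), were lost when single libraries were left out, 4 of them without R9 replicate 3 (adjusted p up to 0.254). The neural progenitor sum was 16648 to 19737 in R9 and 29263 to 47910.2 in R5, and the pluripotency sum 5900.4 to 11066 in R9 and 577 to 1333 in R5, and their part in these changes was not tested.

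In B9 over B5, 7 members were higher and 7 lower, where 20.4% and 23.2% of all genes were, and quantile scaling gave 7 and 12. Fzd7 fell to 2884, 2216 and 1954 in B9, against 4576, 5072 and 6459 in B5 (log2 change -1.19, SE 0.19, limma adjusted p = 1.27e-05). Fzd1 (-1.44), Fzd4 (-1.39), Fzd2 (-1.23), Fzd6 (-0.43) and Sfrp2 (-0.78) fell. The antagonist Dkk2 was at 301, 183 and 209 in B9 and 53.6, 18.6 and 21.6 in B5 (log2 change 2.97, SE 0.79, limma adjusted p = 0.00291). The groups did not overlap in Fzd7 or Dkk2. Sfrp4 (2.34, or 1.75 with a pseudocount of 5), Wnt7b (1.91) and Fzd5 (1.70) rose with it. The calls of Wnt3 (1.57), Frzb (-1.80) and Wnt7a (1.08) were lost without B5 replicate 3, and that of Wnt10a (1.62) under quantile scaling (adjusted p = 0.0504). The neuronal sum was 15124 to 18647 in B9 and 1615 to 6896 in B5, and the pluripotency sum 4795 to 10845 in B9 and 879 to 2236 in B5, and their part was not tested.

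In M9 over M5, 14 members were higher and 4 lower, where 14.4% and 11.4% of all genes were, and the median log2 change was 0.56, against 0.03 over all genes. Wnt8a was at 402, 321 and 275 in M9 and 13.6, 11.6 and 16.6 in M5 (log2 change 4.48, SE 0.78, limma adjusted p = 5.91e-05). Fzd6 was at 909, 1387 and 1077 in M9 and 440.2, 406 and 490.3 in M5 (log2 change 1.32, SE 0.13, limma adjusted p = 8.22e-09). Rspo3 was at 937, 1569.8 and 1728 in M9 and 138, 259.5 and 383 in M5 (log2 change 2.51, SE 0.52, limma adjusted p = 5.43e-04). All M9 libraries lay above all M5 libraries in these 3 genes. Tnfrsf19 (1.72), Sfrp2 (1.26), Wnt16 (2.15), Wnt3 (1.98), Wnt9a (1.83), Wnt5b (1.54) and Rspo1 (1.33) rose as well, and Wnt2 (-2.39) and Rspo4 (-1.66) fell. Another 6 calls were lost when single libraries were left out, 4 of them without M5 replicate 1 (adjusted p up to 0.2), namely Fzd10 (1.58), Wnt10b (1.41), Fzd2 (0.93) and Axin2 (0.86) and, lower, Sfrp5 (-1.54) and Rspo2 (-1.77). Of the 16 further WNT targets 6 rose and 0 fell, with Nkd2 (1.38) and Apcdd1 (1.43) leading. The caudal progenitor sum was 1038 to 1308 in M9 and 136 to 416 in M5, and its part was not tested.

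Whether the day 5 to day 9 change itself differed between treatments was tested as a difference of differences. For M against R, 14 members had a more positive change in M and 6 a more negative one, where 21.9% and 17% of all genes did, and 5 of the 14 were receptors. Fzd6 changed by 1.32 in M and by -0.68 in R (difference 2.00, SE 0.19, limma adjusted p = 3.64e-09). Sfrp2 changed by 1.26 in M and by -1.06 in R (difference 2.32, SE 0.28, limma adjusted p = 2.85e-07). For B against R, 0 members were called in either direction by limma, where 1.19% and 0.918% of all genes were called more positive and more negative in B. An unadjusted p under 0.05 was held by 5 of the 42 members and by 1662 of the 11220 genes.

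**Figure D5:**
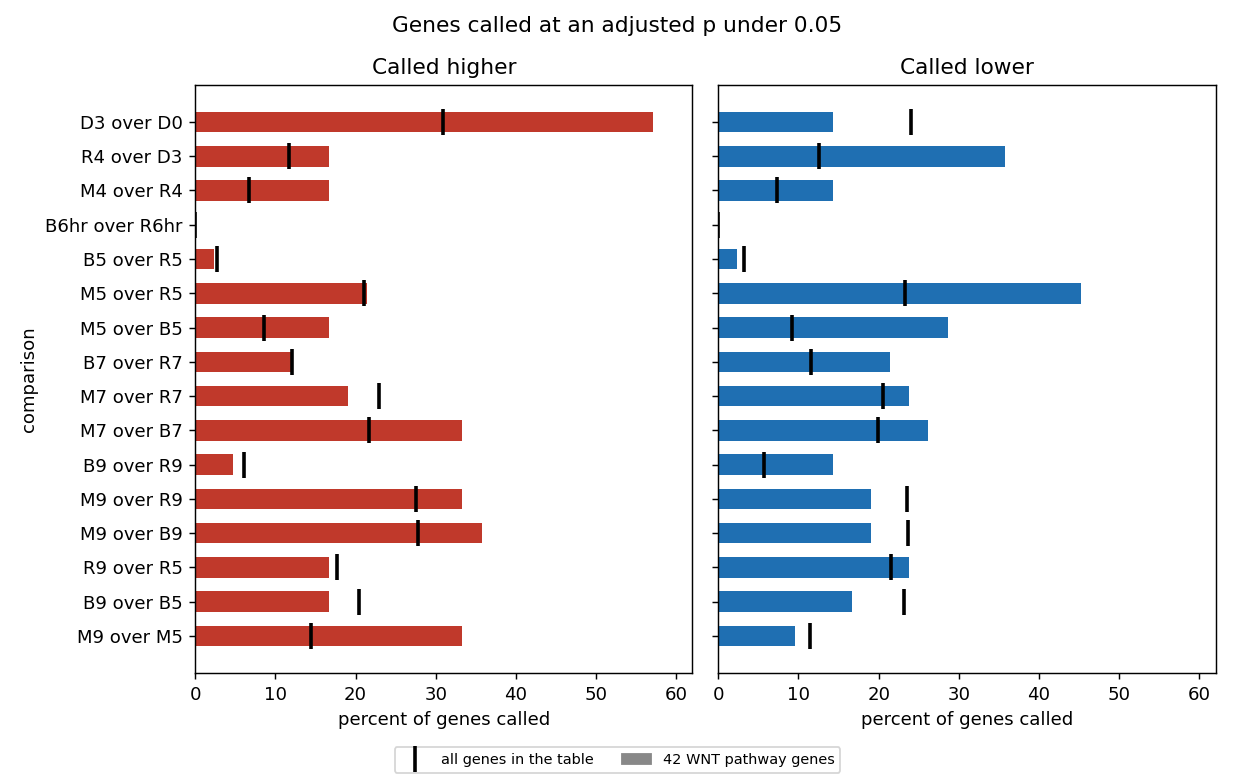
Percent of the 42 members (bars) and of all 11220 genes (black ticks) called higher (left) and lower (right) in each of the 16 comparisons, at a limma adjusted p under 0.05. The members' bars stand farthest above the ticks for higher calls in D3 over D0 and for lower calls in R4 over D3 and M5 over R5.

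Across the course Axin2 had its highest group mean in D3 (16428 ± 1092), far above the next, R7 (5385 ± 881) and B7 (5299.6 ± 1154), and its lowest in M5 (1761 ± 510.4) and D0 (1219.6 ± 139; mean ± SD, n = 3 each). R7, B7, R9 and B9 lay within each other's spread. Over the 15 group means, the members whose log2 level followed Axin2 most closely were Wnt3 (Pearson's r = 0.93), Wnt3a (0.87) and Fzd10 (0.81), and Tnfrsf19 ranked 6 of 41 at 0.73. These values describe 15 groups that share protocol stages, and D3 is the highest group of Axin2, Wnt3, Wnt3a and Fzd10. On days 7 and 9 Tnfrsf19 fell in B relative to R, and Axin2 was not called there, with 95% intervals of its log2 change of -0.52 to 0.46 on day 7 and -0.55 to 0.43 on day 9.

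Some ligand genes are neighbours in the genome. Wnt3a (mm10 chr11:59248033-59290752, minus strand) and Wnt9a (chr11:59306928-59333552, plus strand) lie 16175 bases apart, and their log2 group means correlated at r = 0.87. Wnt6 (chr1:74771892-74785322) and Wnt10a (chr1:74791516-74804179), both on the plus strand and 6193 bases apart, gave 0.67. Wnt10b and Wnt1 on chromosome 15, 11706 bases apart, gave 0.49, and Wnt9b and Wnt3 on chromosome 11, 24328 bases apart, gave 0.27. Over all 153 pairs of ligands the median was 0.12 and the range -0.77 to 0.91. Each value is over the same 15 group means and is a description of these cultures.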

How the data were processed

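RNA was sequenced from 45 cultures in 15 groups of 3, prepared with a NuGEN Universal Plus mRNA kit per the labels' protocols. The submitters' processing notes name Picard, edgeR and mm10; the sources used here do not name an aligner or a counting tool. The deposited table gives, for 11220 genes, a normalized signal per library whose normalization the file header does not state. Whole reads could not be recovered from these levels, so limma-trend was used where the plan had allowed for a count test. A second deposited set of columns with no stated scale, treated as a score, was not used. The deposited log2 fold changes, p-values and false discovery rates are the authors' own comparisons. The number of genes they tested, 16014, was estimated here from those p-values and false discovery rates. The authors' calls were used for 1 alternative only, and the estimated number for another.

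Levels were taken as log2(level + 1), fitted with limma 3.58.1 (R 4.3.3; 1 mean per group, all 45 libraries, trended and robust variance) and adjusted by Benjamini-Hochberg over 11220 genes for each comparison. A filter of level 1 in 3 libraries removed 0 genes. Other steps used Python 3.11.15 with pandas 2.3.3 and numpy 2.4.6. The depth per library is unknown, so the precision of a value is that of 3 cultures. Every gene of the family rule could be named; up to 5 higher and 5 lower genes per comparison, by adjusted p and with a mean level of at least 5, were eligible for full statistics, and a few were given by their change alone. Examples from the pathway lists were the 2 smallest adjusted p of a list. Members and lists were chosen with earlier results of these data known. In simulated data M5 was given the R5 means, and changes were set in genes drawn at random from the whole table. The fit recovered 62% of the changes set at 2-fold and 77% of those set at 4-fold. With B6hr built on R6hr in the same way it recovered 56% and 88%. Recovery was not measured for the members, whose spread was larger than that of most genes.

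Same-numbered libraries of B6hr and R6hr deviated together (correlations 0.59, 0.19 and 0.46 over genes, against at most 0.15 between different numbers). The labels do not state what the number marks, and in the other 15 comparisons at least 1 pair was at 0.1 or below. Alternatives were other pseudocounts, filters, quantile scaling, adjustment over 16014 genes, the compared libraries alone, a replicate block, and each library left out.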

Additional observations from a re-analysis of the deposited data

Results flagged for a closer look

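The change from M5 to M9 differed from that of R5 to R9 by a test of the difference itself (limma, adjusted over all genes) in 20 of the 42 genes. That is 47.6% of the members, where 38.9% of all genes were called. The values that follow are the log2 change of M9 over M5 minus that of R9 over R5. Among receptors it was more positive in M for Fzd2 (2.58), Fzd8 (2.08), Fzd6 (2.00), Fzd3 (1.58) and Fzd7 (1.13), and more negative for Fzd5 (-2.13). Among ligands it was more positive for Wnt8a (3.96), Wnt16 (3.07), Wnt10b (2.08), Wnt5b (1.93), Wnt9a (1.87) and Wnt6 (0.74), and more negative for Wnt7b (-2.55), Wnt2 (-2.54) and Wnt7a (-2.13). Of the R-spondins, Rspo1 (1.85) was more positive and Rspo2 (-2.68) more negative. Of the antagonists, Frzb (2.47) and Sfrp2 (2.32) were more positive and Dkk3 (-1.83) more negative.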

How the results depend on the processing

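The counts of called genes moved by over 1.5 times mostly where only the compared libraries were fitted with a replicate block. That fit called 7 genes in R4 over D3 (22 as reported), 5 in M4 over R4 (13), 19 in B6hr over R6hr (0), 0 in B5 over R5 (2), 0 in B7 over R7 (14), 9 in M7 over R7 (18), 16 in B9 over R9 (8), 10 in R9 over R5 (17) and 1 in the B against R difference of day 5 to day 9 changes (0); outside the 6 h groups a shared number is all that pairs these libraries, and the cause was not tested. Over all 11220 genes the blocked fit called 161, 340, 2902, 2, 0, 1274, 2214, 1034 and 61 in these comparisons, in that order. The compared libraries alone without the block, which leaves fewer samples for the spread, gave 7 in M4 over R4 and 8 in B6hr over R6hr. It gave 1 in the B against R difference, and 364, 847 and 197 over all genes in the 3 comparisons. Quantile scaling gave 4 in B5 over R5 and 1 in the B against R difference, and 736 and 369 over all genes. The authors' deposited test, an alternative added after seeing the data, gave 5 in B5 over R5.

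With 1 library left out, the counts ran from 26 to 31 in D3 over D0, 17 to 22 in R4 over D3, 8 to 12 in M4 over R4, 0 to 0 in B6hr over R6hr, 2 to 4 in B5 over R5, 23 to 28 in M5 over R5, 11 to 18 in M5 over B5, 9 to 12 in B7 over R7, 16 to 18 in M7 over R7, 16 to 20 in M7 over B7, 4 to 7 in B9 over R9, 19 to 21 in M9 over R9, 15 to 21 in M9 over B9, 14 to 18 in R9 over R5, 11 to 18 in B9 over B5 and 14 to 18 in M9 over M5. Over all genes the counts ran, in that order, from 5675 to 5977, 1841 to 3779, 876 to 1518 and 0 to 10. For day 5 they were 196 to 897, 3994 to 4807 and 1026 to 1996. For day 7 they were 1441 to 2155, 4254 to 4639 and 3584 to 4198. For day 9 they were 556 to 1141, 4527 to 5272 and 4395 to 5400. For day 9 over day 5 they were 3171 to 4092, 3409 to 4973 and 1998 to 2534. The differences of changes gave 0 to 0 for B against R and 16 to 21 for M against R. Over all genes they gave 123 to 329 and 3596 to 4248. No named change reversed its direction under the alternatives run. Without D0 replicate 3 and D3 replicate 1, chosen after seeing the data, the calls of Dkk1 and Wnt2 in D3 over D0 ended (adjusted p = 0.229 and 0.381, limma).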
